A study of Homo sapiens with 6 samples.

Results

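A stretch of chromosome 6 from 80 to 90 Mb holds 49 of the 20024 genes in the deposited table, and 32 of them are described here. They were chosen by position and by a mean of at least 1 FPKM over the 6 libraries (fragments scaled to gene length and to the library total). Of the other genes listed in the stretch, 16 lay under that minimum, and SYNCRIP, an RNA-binding protein of the hnRNP family, passes the minimum and was left out by the same rule. The stretch itself was picked on the comparison of DCRT-KO with WT, because its genes were lower in DCRT-KO in earlier results of these data. Its direction is therefore a description, and the calls given for its members support nothing beyond themselves.

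The libraries measured RNA recovered with an antibody to PTBP1, the polypyrimidine tract-binding protein (RNA immunoprecipitation and sequencing, RIP). The 6 libraries came from AC16, which the labels call a heart cell line of cardiomyocytes: 3 with the genotype DCRT-KO, lacking the long noncoding RNA DCRT, and 3 with the genotype WT, all without a further treatment named in the labels. The deposited table lists no gene under the name DCRT, so its loss was not checked here. The series title sets the comparison in dilated cardiomyopathy, and the labels do not say how the knockout was made or whether it is 1 clone. Input RNA and a control antibody were not analysed here, so abundance in the cell and recovery with PTBP1 cannot be told apart, nor can fewer cells expressing a gene and less RNA per cell. WT libraries are called a, b and c in column order, because their column names repeat a number.

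Depth went with genotype. Reads worked back from FPKM (read pairs, where a pair was counted once, since sequencing was paired-end) totalled 1798841 to 2589080 in WT and 373354 to 1380722 in DCRT-KO libraries, and DCRT-KO library 3 was the deepest of its group. The cell label had little support from defining markers in this recovered RNA: of 14 cardiomyocyte genes, 8 were listed at 0 in every library, TNNT2, MYH6, MYH7 and ACTN2 among them. The 14 summed to 1.88 to 3.21 FPKM in WT and 0 to 12.35 in DCRT-KO. The highest sum came from NPPB (7.57) and NPPA (4.78) in DCRT-KO library 2, both at 0 in libraries 1 and 3. PLN had 0.81 to 1.30 FPKM in WT. Endothelial markers summed to 4.12 to 5.37 FPKM in WT against 8.003 to 10.2 in DCRT-KO, and epithelial markers to 58.5 to 67.0 and 93.8 to 227. ERG carried the endothelial rise (mean 2.17 FPKM in WT, 7.33 in DCRT-KO), while PECAM1 (2.37 and 1.98) and KDR were lower. CDH5 and TEK were at 0. KRT18 carried most of the epithelial rise (48.7 and 143), and CDH1 was at 0. Fibroblast and matrix markers summed to 82.8 to 98.7 and 94.9 to 130 FPKM. VIM and FN1 made up nearly all of this, and the other markers of that list were lower in DCRT-KO or at 0. No blood or immune marker reached a mean of 1 FPKM over the 6 libraries, their sums were at most 2.61 in WT and 0.335 in DCRT-KO, and 3 of 6 were listed at 0. The part of depth or of these markers in the values below was not tested.

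PTBP1 binds stretches rich in C and U, in introns and in mature transcripts, and regulates splicing, stability and translation. A stretch of chromosome is not a pathway: neighbouring genes have different functions, but they share base composition, replication timing and chromatin surroundings. GC-poor stretches of human chromosomes are in general sparse in genes. The members here serve cell division, metabolism, protein turnover, membrane traffic and the handling of RNA.

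Because PTBP1 prefers pyrimidines, the most pyrimidine-rich 24 bases of the longest coding transcript in GENCODE 29 are shown for 5 members: both that passed the test (AKIRIN2, SNX14), 2 of the most abundant (NT5E, MDN1) and 1 that was not lower (TPBG). They are written as DNA, 5′ to 3′, and capitals mark TCTT, the DNA form of a short motif that PTBP1 is known to bind.
AKIRIN2: ccccttccctcacccTCTTCTTtc
SNX14: ctttttccttatattttgcctcct
NT5E: TCTTTCTTcccgccccctcTCTTt
MDN1: gcctccccatTCTTtcctcctctc
TPBG: tctcctcgTCTTctcccacctcct
These windows held 21 to 23 pyrimidines of 24. Over whole mature transcripts the members had a median of 5.94 TCTT per kb, with a range of 3.61 in AKIRIN2 to 8.25 in RARS2, against 5.09 over all tested genes. The neighbouring windows of chromosome 6 had medians of 5.40 (70 to 80 Mb) and 6.39 (90 to 100 Mb). Median pyrimidine content was 49.2% in the members and 49.5% over all tested genes. TPBG, which was not lower, had 8.17 per kb. A match is not a bound site, and introns were not searched.

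The promoters of both members that passed the test are shown, with that between RARS2 and ORC3, whose starts lie head to head 79 bases apart. Each runs from 250 bases before to 50 after the start, from RefSeq on GRCh38.p14. Capitals mark the CCAAT box (CCAAT or ATTGG) and the GC box (GGGCGG or CCGCCC), searched on both strands.
AKIRIN2, chr6:87702184-87702483, minus strand: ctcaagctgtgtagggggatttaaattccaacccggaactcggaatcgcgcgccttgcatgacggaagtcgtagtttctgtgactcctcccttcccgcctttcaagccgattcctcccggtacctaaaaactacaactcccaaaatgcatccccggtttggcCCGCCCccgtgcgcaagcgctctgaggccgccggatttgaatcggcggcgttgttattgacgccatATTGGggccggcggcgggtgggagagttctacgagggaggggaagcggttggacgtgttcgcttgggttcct
SNX14, chr6:85593809-85594108, minus strand: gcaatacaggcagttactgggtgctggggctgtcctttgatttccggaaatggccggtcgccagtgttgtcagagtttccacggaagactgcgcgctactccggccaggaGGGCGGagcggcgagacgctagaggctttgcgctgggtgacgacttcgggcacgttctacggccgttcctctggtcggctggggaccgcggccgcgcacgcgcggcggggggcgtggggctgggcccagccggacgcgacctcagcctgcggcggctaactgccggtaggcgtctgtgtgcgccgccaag
RARS2, chr6:87589938-87590237, minus strand: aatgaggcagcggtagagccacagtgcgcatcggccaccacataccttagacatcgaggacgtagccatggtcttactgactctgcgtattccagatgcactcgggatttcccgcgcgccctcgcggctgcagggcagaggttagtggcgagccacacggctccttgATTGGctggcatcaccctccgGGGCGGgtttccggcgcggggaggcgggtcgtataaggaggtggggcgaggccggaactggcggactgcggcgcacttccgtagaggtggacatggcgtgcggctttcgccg
RefSeq windows were found for 28 of the 32 members, 33 in all. The GC box stood in 84.8% of them, against 66.9% of the windows of all tested genes that matched by symbol and 45.0% of all 35116 windows. For the CCAAT box the shares were 45.5%, 34.8% and 34.6%, and for a TATA box (TATAAA or TTTATA) 6.06%, 6.17% and 11.5%. The members' windows held a median of 27 CpG, against 26 for tested genes and 14 for all. The RARS2 and ORC3 windows share 247 bases and those of PGM3 and RWDD2A 191. In CpG content the members' promoters were thus close to those of the tested genes, and in the GC box share above them.

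In DCRT-KO, 30 of the 32 members had a lower mean log2(FPKM + 1) than in WT, against 52.8% of the 11445 genes tested. The median of their log2 differences (DCRT-KO minus WT) was -0.77, with quartiles of -0.98 and -0.46. Over all tested genes the median was -0.04 and the quartiles -0.38 and 0.32. The median ratio of FPKM means was 0.538 for the members and 0.997 over all tested genes. In 19 members all 3 DCRT-KO values lay below all 3 WT values, against 14.8% of tested genes. Because the stretch was chosen on this comparison, nothing more is read from these counts.

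With limma on log2(FPKM + 1), fitted and adjusted over all 11445 genes, AKIRIN2 and SNX14 fell at an adjusted p below 0.05 (two-sided), against 1.2% of genes called lower. None rose, against 2.35% called higher, and none was higher at an unadjusted p below 0.05 in limma or in voom either. At that unadjusted level 18 members were lower in limma, against 11.3% of tested genes. When whole reads were tested with voom, 8 members passed as lower, against 3.41% of genes: TTK, PGM3, NT5E, SNX14, AKIRIN2, PM20D2, MDN1 and BACH2. The labels do not say whether libraries came from separate cultures, so these p-values measure the spread between libraries, which may be technical.

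**Figure D1:**
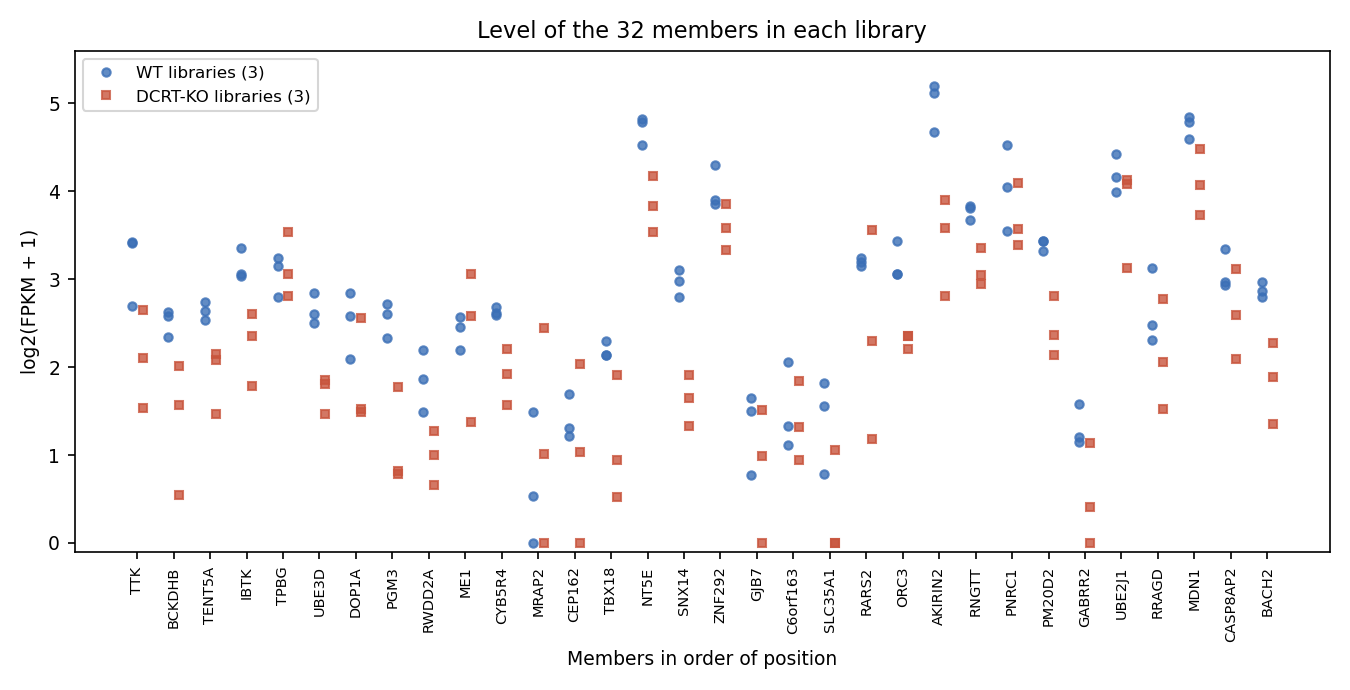
Level of each of the 32 members as log2(FPKM + 1) in the 3 WT libraries (circles) and the 3 DCRT-KO libraries (squares), members in order of position from TTK to BACH2. In 19 members every square lies below every circle. In the others the groups overlap, TPBG, ME1 and MRAP2 among them, and MRAP2 has a WT and a DCRT-KO library at 0.

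Of 8 members that act on RNA, on ribosome assembly or in transcription, all 8 had a negative log2 difference (52.8% of tested genes). In 7 all DCRT-KO values lay below all WT values (14.8% of tested genes). The median log2 difference of the 8 was -0.70. AKIRIN2 (ENSG00000135334, at 87674860 to 87702233), a nuclear protein needed for import of proteasomes and for part of the NF-kB response, had the largest difference of the block. It had 33.9, 24.6 and 35.8 FPKM in WT (library a, b, c), against 11.01, 5.99 and 13.9 in DCRT-KO (library 1, 2, 3). Every WT value was thus well above every DCRT-KO value. Its level fell by 1.57 ± 0.29 SE as log2(FPKM + 1) (limma adjusted p = 0.0269), from a mean of 31.4 ± 5.97 to 10.3 ± 4.02 FPKM (SD, n = 3 each). Limma's adjusted p was 0.117, 0.112 and 0.12 without WT library a, b or c and 0.054 without DCRT-KO library 2, so the call was lost in these, while it was 0.0481 and 0.0104 without DCRT-KO library 1 or 3. It was 0.106 without both shallowest libraries, DCRT-KO 1 and 2, and 0.0535 with no minimum on FPKM.

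MDN1, a giant ATPase that strips assembly factors from the large ribosomal subunit, had the highest mean FPKM over the 6 libraries, while AKIRIN2 was higher in WT. It had 23.2, 26.7 and 27.7 FPKM in WT against 15.8, 21.4 and 12.3 in DCRT-KO, with 3082 reads in WT against 622 in DCRT-KO. Its groups did not overlap, but its log2 difference of -0.65 ± 0.21 SE did not pass in limma. RNGTT, the enzyme that caps messenger RNA, had 11.8, 13.3 and 13.0 FPKM in WT against 7.30, 6.71 and 9.21. Its groups lay apart, with a log2 difference of -0.65.

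ZNF292, a large zinc finger transcription factor, had 13.51, 18.7 and 13.9 FPKM in WT against 13.5, 10.99 and 9.06 in DCRT-KO. The nearest values of its groups almost touched, and its log2 difference was -0.43. PNRC1, a nuclear receptor coactivator, had 22.1, 15.6 and 10.7 FPKM in WT against 9.49, 16.1 and 10.9 in DCRT-KO. It was the member of the RNA and transcription group whose values overlapped, with a log2 difference of -0.36 ± 0.28 SE.

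BACH2, a transcriptional repressor known from lymphocytes and the last member by start, had 5.96, 6.82 and 6.29 FPKM in WT against 2.71, 3.83 and 1.55 in DCRT-KO (log2 difference -1.04). TBX18, a T-box factor of the epicardium and the sinus node, had 3.39, 3.40 and 3.92 FPKM against 0.437, 0.929 and 2.76 (-1.06). In TBX18 DCRT-KO library 3 stood well above libraries 1 and 2, which had 2 and 3 reads. TENT5A, of a family of noncanonical poly(A) polymerases, had 5.23, 5.69 and 4.81 FPKM against 3.44, 1.77 and 3.23 (-0.74). All 3 factors had lower values in each DCRT-KO library than in any WT library.

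Of 7 metabolic members, all 7 had a negative log2 difference (52.8% of tested genes), with a median of -0.96. Of these, 5 lay in DCRT-KO wholly below WT (14.8% of tested genes). NT5E, the surface enzyme CD73 that turns AMP into adenosine, had 27.4, 22.1 and 26.6 FPKM in WT against 17.1, 10.6 and 13.3 in DCRT-KO. The lowest WT value was above the highest DCRT-KO value. Its log2 difference was -0.86 ± 0.21 SE, which passed in voom (adjusted p = 0.0173) and not in limma (adjusted p = 0.054).

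PGM3, which makes a precursor of UDP-N-acetylglucosamine for glycosylation, had 5.06, 5.58 and 4.02 FPKM in WT against 0.759, 0.716 and 2.42 in DCRT-KO. Its log2 difference was -1.43 ± 0.33 SE, on 3, 2 and 25 reads in DCRT-KO. BCKDHB, a subunit of the branched-chain ketoacid dehydrogenase, had 4.08, 5.19 and 5.0015 FPKM against 0.465, 1.97 and 3.02 (-1.14), and also rested on few DCRT-KO reads (1, 3 and 17). In PGM3 and BCKDHB DCRT-KO library 3 was the highest of its group, yet below each WT library.

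PM20D2, a peptidase of the M20 family, had 9.86, 8.98 and 9.79 FPKM in WT against 6.04, 3.42 and 4.16 in DCRT-KO (log2 difference -0.96 ± 0.24 SE). CYB5R4, a cytochrome b5 reductase, had 5.42, 5.03 and 5.14 FPKM against 1.97, 2.78 and 3.61 (-0.73). Both had narrow WT values and no overlap. ME1, the cytosolic malic enzyme that makes NADPH, was the exception among the metabolic members: it had 3.59, 4.50 and 4.94 FPKM in WT against 7.37, 1.605 and 4.99 in DCRT-KO. Its DCRT-KO libraries spread to both sides of WT, so its log2 difference was -0.07 ± 0.40 SE while its mean FPKM was higher in DCRT-KO (4.66 against 4.34). SLC35A1, the Golgi transporter of CMP-sialic acid, had 13, 7 and 3 reads in WT against 0, 0 and 3 in DCRT-KO, which is too few for a firm ratio.

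Of 3 members of membrane traffic and lysosomal signalling, all 3 had a negative log2 difference (52.8% of tested genes). SNX14 (ENSG00000135317, at 85505496 to 85594156), a sorting nexin of the endoplasmic reticulum that acts on lipid droplets, had 6.90, 7.59 and 5.94 FPKM in WT against 2.13, 1.51 and 2.75 in DCRT-KO. No DCRT-KO library reached the lowest WT library. Its level fell by 1.33 ± 0.26 SE as log2(FPKM + 1) (limma adjusted p = 0.0302), from 6.81 ± 0.831 to 2.13 ± 0.622 FPKM (SD, n = 3 each). Limma's adjusted p was 0.143, 0.165 and 0.113 without WT library a, b or c, and 0.0509 and 0.0664 without DCRT-KO library 1 or 2. It was also 0.118 without both of these, 0.0581 with no minimum on FPKM, and 0.0671 after removal of the trend with GC content and length.

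DOP1A, of Golgi and endosome traffic, had 4.999, 3.27 and 6.18 FPKM in WT against 4.90, 1.87 and 1.80 in DCRT-KO, and RRAGD, a Rag GTPase that signals amino acids to mTORC1, had 7.77, 3.95 and 4.59 against 1.87, 3.17 and 5.85. In DOP1A and RRAGD the groups overlapped (log2 differences -0.65 ± 0.36 SE and -0.52 ± 0.36 SE).

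Among 3 members of ubiquitin conjugation and its adaptors, 2 had all DCRT-KO values below WT, again beside 14.8% of tested genes. UBE3D, a ubiquitin ligase, had 4.65, 6.17 and 5.07 FPKM in WT against 1.77, 2.51 and 2.60 in DCRT-KO (log2 difference -0.94 ± 0.25 SE). IBTK, a substrate adaptor of cullin 3 ligases, had 7.22, 9.25 and 7.34 against 4.12, 2.46 and 5.07 (-0.90). UBE2J1, a conjugating enzyme anchored in the endoplasmic reticulum, was higher in level and less different. It had 16.9, 14.95 and 20.5 FPKM in WT against 15.9, 7.72 and 16.5 in DCRT-KO, with overlap between the groups and a log2 difference of -0.42 ± 0.28 SE.

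Of 4 members of cell division and DNA work, all 4 had a negative log2 difference (52.8% of tested genes). The groups did not overlap in 2, beside the same 14.8% of tested genes. TTK, the spindle checkpoint kinase and the first member by start, had 5.48, 9.71 and 9.63 FPKM in WT against 3.31, 5.26 and 1.898 in DCRT-KO (log2 difference -1.08 ± 0.33 SE). ORC3, a subunit of the origin recognition complex, had 7.33, 9.80 and 7.36 FPKM against 4.10, 3.63 and 4.12, the most even DCRT-KO values of these 4 (-0.88 ± 0.22 SE). CASP8AP2, which acts in histone messenger RNA processing, had 6.81, 9.18 and 6.65 against 7.64, 3.28 and 5.05 (-0.48 ± 0.29 SE). CEP162, a centriole and cilium protein, had 1.48, 2.23 and 1.33 against 3.11, 0 and 1.06, with 9, 0 and 8 reads in DCRT-KO. DCRT-KO library 1 was within or above the WT range in CASP8AP2 and CEP162.

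RARS2, the arginyl-tRNA synthetase of mitochondria, shares its promoter window with ORC3 but varied far more between DCRT-KO libraries. It had 8.20, 7.86 and 8.49 FPKM in WT against 1.27, 10.8 and 3.90 in DCRT-KO, so that library 2 was above WT and libraries 1 and 3 were below it (log2 difference -0.85 ± 0.49 SE). ORC3 and RARS2 thus had nearly the same log2 difference, one from separated groups and the other from overlapping ones.

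Both surface and signalling members were not lower. TPBG, the oncofetal antigen 5T4, had 7.89, 8.45 and 5.97 FPKM in WT against 6.03, 7.37 and 10.6 in DCRT-KO, with a log2 difference of 0.07 ± 0.25 SE. Its 331 WT and 142 DCRT-KO reads make it one of the better measured members. MRAP2, an accessory protein of melanocortin receptors, had 10, 0 and 2 reads in WT against 5, 0 and 3 in DCRT-KO, and its log2 difference of 0.47 ± 0.62 SE was the least precise of the block. Of the other 4 members, RWDD2A had 3.59, 2.65 and 1.80 FPKM in WT against 1.004, 1.42 and 0.576 in DCRT-KO (-0.87), without overlap. GJB7, a connexin, had 0.708, 1.83 and 2.13 against 0, 0.981 and 1.86, and C6orf163 3.17, 1.52 and 1.16 against 2.59, 0.917 and 1.49. The groups overlapped in GJB7 and C6orf163.

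GABRR2, a subunit of GABA-gated chloride channels, lay just inside the minimum with a mean of 1.01 FPKM, and had 7, 8 and 6 reads in WT against 0, 1 and 1 in DCRT-KO. Just outside was SMIM8, with a mean of 0.786 FPKM and 18, 26 and 18 reads in WT against 0, 2 and 8 in DCRT-KO. A gene such as GABRR2 passes through its WT values alone: 3 members had a DCRT-KO mean under 1 FPKM and 1 had a WT mean under 1. The 28 members with at least 1 FPKM in both groups had a median log2 difference of -0.80. Of the 16 genes under the minimum, 5 had no read in any library, 10 had a lower mean in DCRT-KO and 1, the cannabinoid receptor CNR1 with 3 reads in all, a higher one.

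Some members overlap a neighbour, and the labels name strand-specific libraries but not a counting tool or its strand setting. DOP1A and PGM3 overlap by 10201 bases on opposite strands, PGM3 and RWDD2A by 580, and GJB7 and SMIM8 by 6696. On the same strand, C6orf163 overlaps SMIM8 by 20651 bases, SLC35A1 overlaps AL049697.1 and SNX14 overlaps AL589666.1, which had no read. How reads were divided between these genes is uncertain.

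Summed over the 32 members, the block took 1777, 1912 and 1841 RPM (reads scaled by the library total) in WT, against 1158, 1101 and 1065 RPM in DCRT-KO. The groups did not overlap, and the mean of 1108 ± 46.9 in DCRT-KO was 0.601 of the 1843 ± 67.7 in WT (SD, n = 3 each). For the window from 90 to 100 Mb the ratio was lower, 0.515 (350 ± 72.4 RPM in DCRT-KO, 679 ± 38.5 in WT). For that from 70 to 80 Mb it was 1.67 (3888 ± 658 and 2334 ± 217). Counted by gene, 12 of the 21 tested genes of that window were lower, with a median log2 difference of -0.14. Its most abundant gene, EEF1A1, was higher, with a log2 difference of 1.11. The window's sum without EEF1A1 was not taken, so the ratio of 1.67 does not describe its genes as a set. MDN1 alone held a large part of the block's reads. Without it the sums were 1345, 1414 and 1324 in WT against 863, 702 and 836 in DCRT-KO. Over all tested genes the median log2 difference from the WT mean was -0.07, -0.04 and 0.06 in DCRT-KO libraries 1, 2 and 3. For the members it was -0.81, -0.89 and -0.56, and 26, 29 and 27 of the 32 were lower. Each WT library, set against the other WT libraries, had a median between -0.10 and 0.12. DCRT-KO library 3, the deepest of its group, was the nearest to WT by this median and the farthest by the RPM summed over all 32 members. Without MDN1, DCRT-KO library 2 was the farthest.

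**Figure D2:**
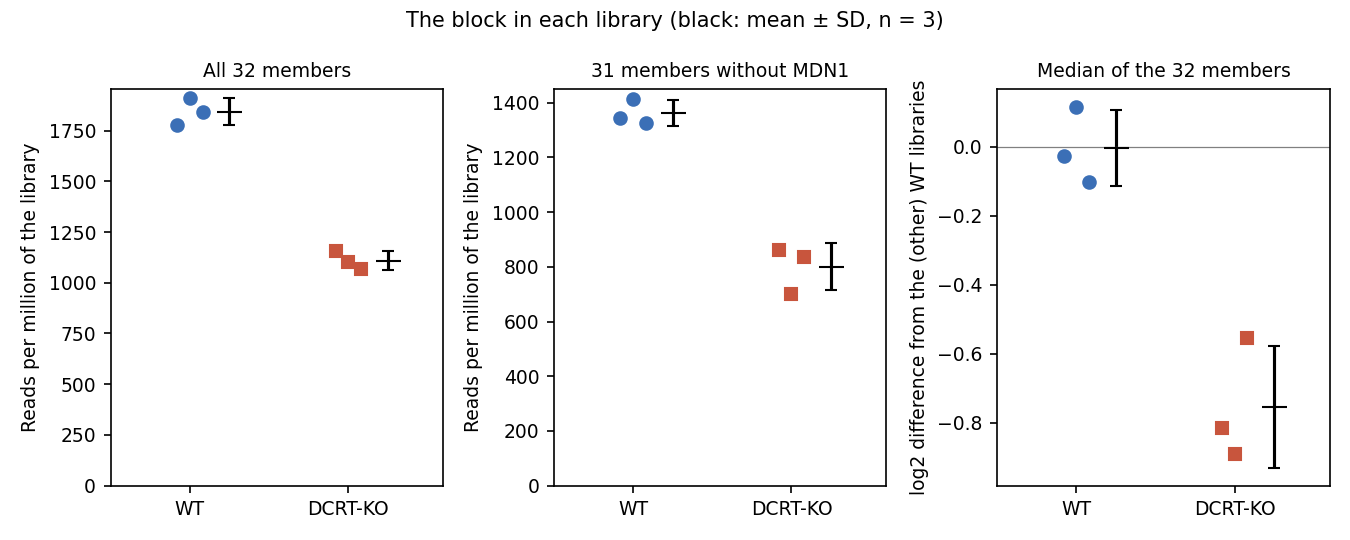
The block in each library: RPM summed over all 32 members (left), over 31 members without MDN1 (middle), and the median over members of the log2(FPKM + 1) difference from the WT libraries, for a WT library from the other WT libraries (right). Points are libraries and black marks the mean ± SD of 3; the 3 DCRT-KO libraries lie at 1065 to 1158 RPM, below the 1777 to 1912 of WT.

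Along the chromosome the lower values did not stop at the edges that define the block. In steps of 2.5 Mb its median log2 differences were -0.90, -0.73, -0.67 and -0.73. Below the lower edge, the 5 tested genes with starts between 77.5 and 80 Mb were all lower, with a median of -0.91. They were PHIP, HMGN3, LCA5, SH3BGRL2 and ELOVL4. ELOVL4, an elongase of very long chain fatty acids whose start at 79914814 is the nearest outside, fell from 3.44 ± 0.195 to 0.450 ± 0.392 FPKM (limma adjusted p = 0.0322). Between 72.5 and 77.5 Mb the picture was the opposite or flat. There the translation factor EEF1A1 rose from 212 ± 30.8 to 462 ± 101 FPKM (limma adjusted p = 0.0271) and the surface protein CD109 from 12.3 ± 0.535 to 21.2 ± 0.534 (adjusted p = 0.043), and medians were 0.82 and 0.08. EEF1A1 has many near-identical copies in the genome, so its reads could be split or shared by the counting. Farther out, at 70 to 72.5 Mb, all 4 tested genes were lower again, with a median of -0.52. The window from 70 to 80 Mb as a whole, with 12 of 21 genes lower and a median of -0.14, therefore joins unlike parts.

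Above the upper edge the nearest tested gene, MAP3K7, a kinase of TGF-beta and NF-kB signalling at 90513573, had 15 ± 1.84 FPKM in WT against 8.25 ± 1.41 in DCRT-KO (log2 difference -0.80 ± 0.20 SE). The window from 90 to 100 Mb had 12 of 13 genes lower and a median of -0.82. The helicase subunit gene ASCC3, the next beyond it, had a log2 difference of -0.44. HACE1 and LIN28B, at 102.5 to 105 Mb, had 0.29 and 0.11, and the median over 100 to 110 Mb was 0.01. Going out from the block, 6 tested genes in a row were lower below it, as far as MYO6 at 75749192, and 6 above it, as far as MMS22L at 97142161. The first that were not lower were SENP6 and POU3F2. Inside the block SYNCRIP, the gene left out, had a mean of 16.4 FPKM in WT and 9.06 in DCRT-KO (limma adjusted p = 0.0423). The ends of these runs were read from the values and carry no test. The limma calls of ELOVL4, EEF1A1, CD109 and SYNCRIP were lost without WT library c, where 0 genes were called.

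**Figure D3:**
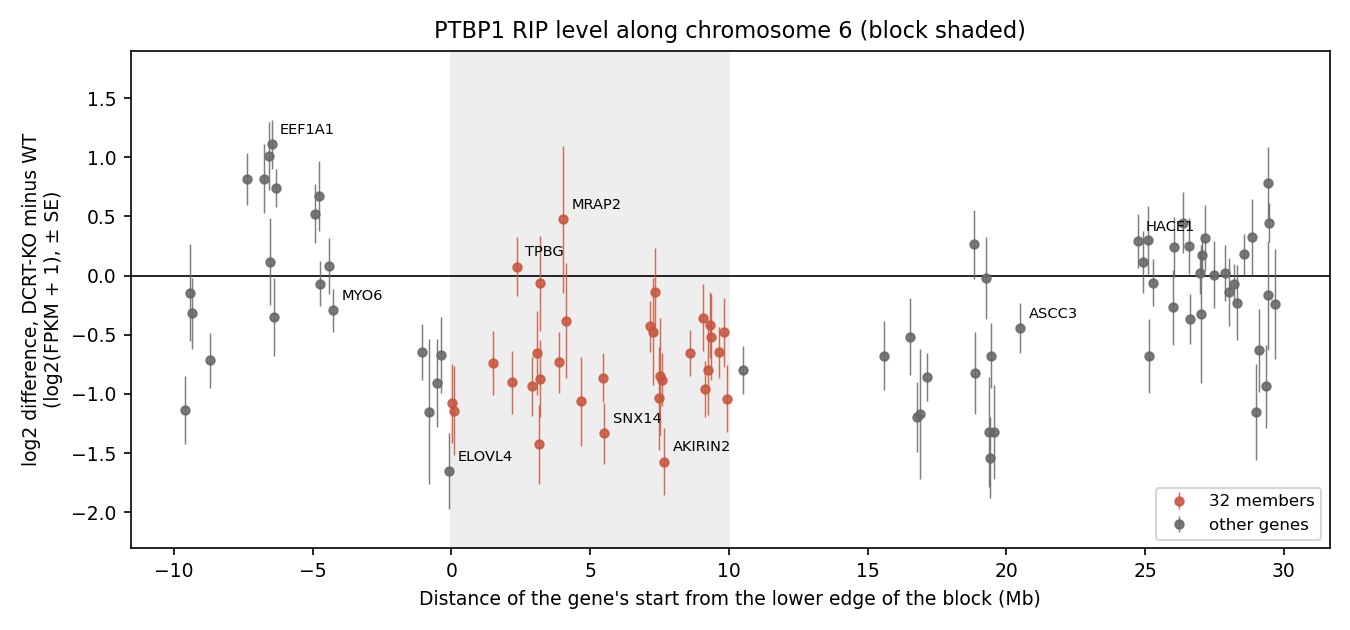
Log2 difference (DCRT-KO minus WT, log2(FPKM + 1), bars ± SE from limma) of every tested gene by the distance of its start from the lower edge of the block in Mb; the block is shaded and its 32 members are red. Most values from just below the block to ASCC3 are below 0, while genes around EEF1A1 are above 0 and those around HACE1 lie near 0.

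Among 286 windows of 10 Mb with at least 10 tested genes, the median of the members was the second lowest, next to the -0.82 of its upper neighbour. Both windows of chromosome 12 from 10 to 30 Mb followed, with -0.71 and -0.75. Since the stretch was picked for its lower values, its rank here and after trend removal below is a description only. Within the block the log2 differences had no clear relation to position or level across the 32 members (Spearman's rho 0.14 with the start and 0.05 with the mean FPKM, as a description). The 15 members on the plus strand had a median of -0.73 and the 17 on the minus strand -0.80. Strand, place within the block and abundance did not separate the members.

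Base composition did go with the difference across the genome. The members' transcripts had a median GC content of 41.2%, from 36.5% in ZNF292 to 53.7% in AKIRIN2, against 48.4% over all tested genes. Across 11437 tested genes, which share the 6 libraries and are not independent replicates, the log2 difference correlated with GC content (Pearson's r 0.41, Spearman's rho 0.43). Across the 286 windows of 10 Mb, which share the libraries and their depth, r was 0.62. Within the block this was not seen (r -0.09 over 32 members), and AKIRIN2, the member richest in GC, had the largest difference.

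When the dependence on GC content and transcript length was removed library by library, the members' median log2 difference was -0.55. Then 28 of 32 were lower, against 5656 of 11445 tested genes. The median was then 0.04 in the window from 70 to 80 Mb and -0.47 in that from 90 to 100 Mb, and the block was the third lowest of the 286 windows. The difference of the block was thus smaller with the trend removed and kept its sign. Whether GC content, depth or another property shared along the chromosome accounts for any part of the difference was not tested.

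**Figure D4:**
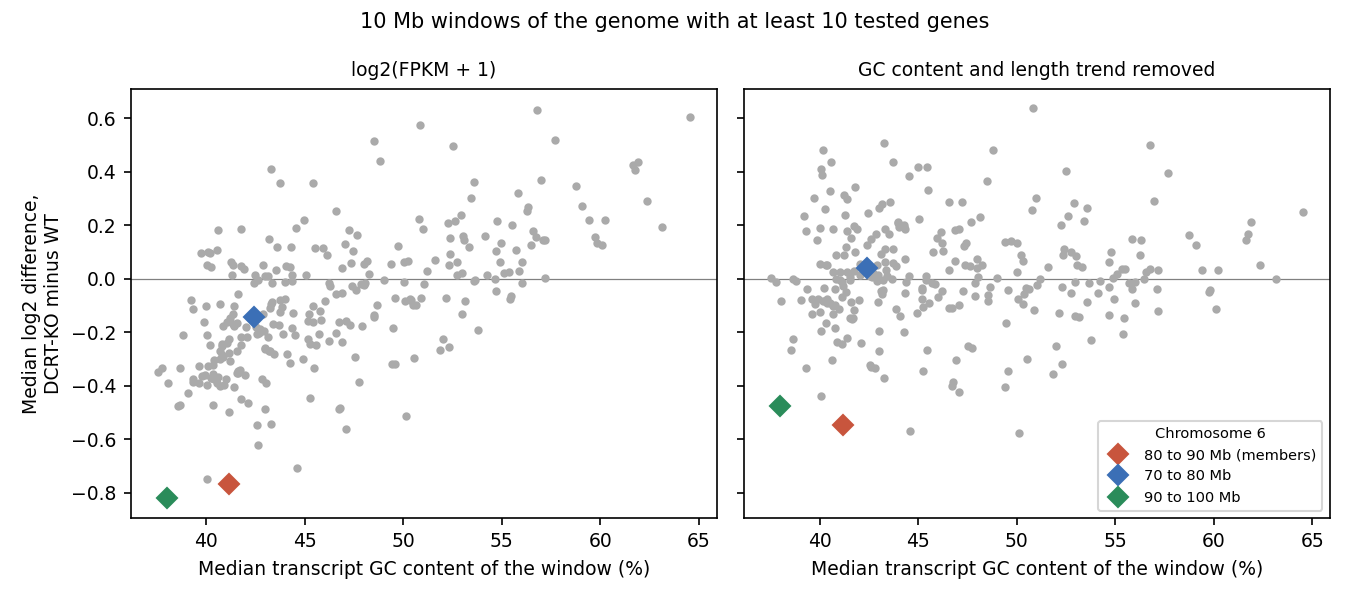
Each point is a 10 Mb window with at least 10 tested genes (286), by the median GC content of its transcripts in % (horizontal) and its median log2 difference, DCRT-KO minus WT (vertical), on log2(FPKM + 1) at left and after removal, library by library, of the dependence on GC content and length at right. The block moves from -0.77 to -0.55 and stays near the bottom; its neighbour at 70 to 80 Mb moves to 0.04.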

How the data were processed

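Per the file headers, the authors deposited FPKM with gene lengths and positions. The one tool named, per the submitters' processing notes, is cutadapt 1.2.1, and which aligner, counter and build were used is not given in the sources used here. Positions of all 32 members overlapped those of GENCODE 29 (GRCh38) and 15 were identical; they are printed as deposited. Read numbers were worked back from FPKM and length, since in each column 100% of the products were whole multiples of 1 value (tolerance 1e-06); 3 reads are 1.16 to 8.04 RPM (reads scaled by the library total), a floor that covers counting error only.

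The 11445 genes whose mean reached 1 FPKM were tested on log2(FPKM + 1) with limma (version 3.58.1, R 4.3.3), using its variance trend and Benjamini-Hochberg adjustment over all of them, threshold 0.05; the scale understates changes of low genes. Log2 differences have SE, FPKM means SD. voom used the whole reads. The test was checked on simulated data. Replicate pairs all differed by more than sampling noise (chi-square of 2.82 to 5.88 per degree of freedom). No FPKM column was left unused (0). GC content, length and TCTT came from the longest coding transcript in GENCODE 29 (11437 of 11445 genes), and the trend was a loess fit per library. Python 3.11.15, NumPy 2.4.6 and pandas 2.3.3 prepared the tables. The members, role groups and lists were chosen with earlier results of these data known. Genes given with their 6 values were those past the threshold, with a mean of at least 10 FPKM, not lower, first or last by start, or next to the minimum, and most others by role; PHIP, EEF1A1, CD109, MAP3K7, ASCC3, HACE1, LIN28B and the other genes outside the block were chosen after their values were seen. Alternatives were another pseudocount, filters, scalings, voom, trend removal, shifted windows and left-out libraries.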

Additional observations from a re-analysis of the deposited data

How the results depend on the processing

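The members' median log2 difference was negative under every alternative run. It was -1.04 with a pseudocount of 0.1, -0.55 with the GC content and length trend removed and -0.56 (-0.555) with both shallowest libraries left out, where the lone DCRT-KO library is assumed to vary like WT. With 1 library left out it ran from -0.81 to -0.73, with 27 to 31 members lower. Of 14 members with at least 5 FPKM 13 were lower. The share of all genes that were lower was not taken for that filter or with 1 library left out. In shifted windows, 19 of 24 genes at 75 to 85 Mb and 19 of 19 at 85 to 95 Mb were lower, against 52.8% of all tested genes.

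Members called lower numbered 2, beside 1.2% of the genes tested. With voom they were 8, beside 3.41%. They were 0 without a filter, 4 with quantile normalization and 1 with the trend removed. With 1 library left out they were 0 to 10, the 10 without DCRT-KO library 3. For these settings the calls over all genes, given below, hold both directions together, and they rose and fell as well. Where limma called 0, between 14 and 19 were lower at an unadjusted p below 0.05, beside 6.27% to 10.8% of the genes tested there. AKIRIN2 passed in 8 of 14 alternatives and SNX14 in 5 of 13, and neither changed direction (log2 differences -1.81 to -1.10 and -1.66 to -1.01). Over all genes tested, 406 were called, 122 without a filter, 1049 with voom, 170 with the trend removed, 38 with both shallowest libraries left out, and 0 (without WT library c, with 1991 at an unadjusted p below 0.05) to 1528 (without DCRT-KO library 3) with 1 left out.

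The median of the window at 70 to 80 Mb changed sign, to 0.67 with a filter of 5 FPKM, 0.04 (0.0394) with the trend removed and 0.04 (0.0430) with both shallowest libraries left out. At 90 to 100 Mb it was -0.47 and -0.65 in those last 2. The causes were not tested. No paired analysis was possible because 2 WT columns repeat 1 number in their names. Members with few DCRT-KO reads are limited by depth: 9 of 32 had under 30 reads over the 3 DCRT-KO libraries.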
